A study of Homo sapiens with 17 samples.

Results

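PADI1 and PADI2 encode peptidylarginine deiminases, and both were lower in PC3 cells after depletion of the transcription factor ETV4 and after depletion of the Mediator subunit MED25 with 1 of its 2 hairpins. The pair are 2 of the 1400 genes that appear in at least 1 of 4 tables of lowered genes, and they were found by their symbols in the identifier column. They were chosen by their deposited log2 ratios, that is, because both stand in several of these tables, so their ratios are given as a description with no test. Among the 1400 genes, 48 were in at least 3 tables, and PADI1 and PADI2 were among them.

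PC3 is an established human prostate cancer cell line. Early passage cells were harvested 7 days after infection with a virus carrying a short hairpin RNA (shRNA). The lentiviral libraries comprised 3 with MED25 shRNA A, 3 with MED25 shRNA B and 3 with the lentiviral control, a luciferase shRNA. The retroviral libraries comprised 3 with ETV4 shRNA A, 3 with ETV4 shRNA B and 2 with the retroviral control shRNA. The design text of the series, by contrast, speaks of an empty vector. All 17 libraries are from the same cell line and no label says whether replicates were separate cultures. What was used are the authors' 4 comparisons, 1 per hairpin, each with a log2 ratio and a score per gene. Values of single libraries were not analysed here. Their depth is therefore unknown, and no ratio below carries an error. In bulk RNA, less RNA per cell and fewer expressing cells cannot be told apart.

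Peptidylarginine deiminases are calcium-dependent enzymes that convert arginine residues of proteins to citrulline, which removes a positive charge and can loosen the structure of the substrate. PADI1 is best known from the epidermis, where it modifies keratins and filaggrin. PADI2 is the most widely expressed of the family and modifies myelin basic protein and vimentin, and in breast cancer cells histone H3 at genes bound by the oestrogen receptor. ETV4 is an ETS-family activator, and MED25 is a Mediator subunit that binds the activation domain of ETV4 and its close relatives.

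The human family has 5 genes, which stand in a row on chromosome 1 with no other protein-coding gene among them in the GENCODE 29 annotation. PADI2 (ENSG00000117115) is on the minus strand and PADI1 (ENSG00000142623) on the plus strand, so the pair point away from each other, and their annotated starts are 85.7 kb apart. The 2 annotated genes between them are long intergenic noncoding RNAs, and neither was in a table. No annotated gene overlaps PADI1 or PADI2, so counting without strand would not mix their reads with an antisense partner. Translated from the annotated coding sequence, PADI1 has 663 residues and PADI2 665, and 53.3% of their 657 aligned residues are identical. PADI1 was closer in sequence to PADI3 (58.5%) and PADI4 (58.0%) than to PADI2. The longest run of bases shared by any PADI1 and any PADI2 transcript is 23. Of the 50-base runs in PADI1 transcripts, 0 of 4897 occur in a transcript of another gene, and of those in PADI2 transcripts 17 of 5977 do (0.284%). At that length, reads of the 2 genes could be told apart over nearly all of their transcripts; the read length used is not given here.

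**Figure D1:**
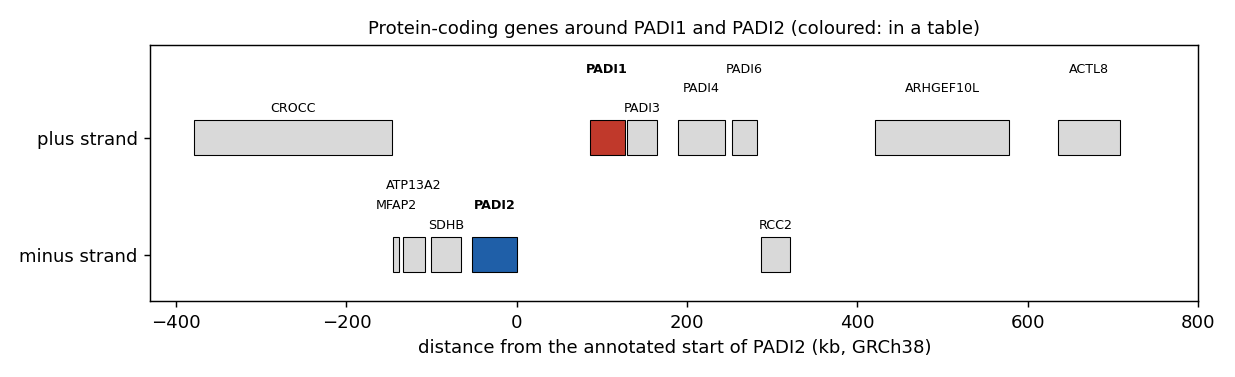
Protein-coding genes around PADI1 and PADI2, drawn to scale by strand, with distance from the annotated start of PADI2 in kb on the x axis. PADI1 (red) and PADI2 (blue) are in 3 tables each, and the genes in grey are in none.

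The bases before the annotated starts are shown because the depleted factor ETV4 belongs to a family that binds around the letters GGAA. Both are the 250 bases before the start, 5′ to 3′ on the strand of the gene, from RefSeq on GRCh38.p14, and capitals mark GGAA or its reverse complement TTCC.
PADI1 at chr1:17204878-17205127, plus strand: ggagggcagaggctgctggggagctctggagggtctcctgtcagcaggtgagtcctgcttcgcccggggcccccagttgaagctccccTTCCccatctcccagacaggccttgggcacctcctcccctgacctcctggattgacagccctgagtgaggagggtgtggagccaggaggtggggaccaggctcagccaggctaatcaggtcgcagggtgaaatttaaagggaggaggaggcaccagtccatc
PADI2 at chr1:17119452-17119701, minus strand: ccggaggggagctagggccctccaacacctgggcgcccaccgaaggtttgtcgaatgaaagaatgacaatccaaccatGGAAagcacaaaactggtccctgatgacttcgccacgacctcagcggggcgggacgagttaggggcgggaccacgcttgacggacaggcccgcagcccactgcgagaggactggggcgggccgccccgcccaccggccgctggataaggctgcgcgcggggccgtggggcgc

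Each window holds GGAA 1 time, counted over both strands, with its last base 159 bases before the start of PADI1 and 169 bases before the start of PADI2. The letters are common, and 92.7% of 35116 promoter windows of this length hold them, with a median of 3 per window. The longer forms CGGAAG and AGGAAG, which contain GGAA, are in neither window and in 16.5% and 28.7% of all windows. TGANTCA, counted with any base at N and so broader than the letters bound by AP-1, is also in neither window. It is in 6.57% of all windows. The windows differ in CpG content. PADI1 has 3 CpG in its window and PADI2 has 24, where the median window has 11, while G and C make up 64.0% and 68.0% of bases against a median of 58.0%. The windows of PADI4 and PADI6, which were not listed with any hairpin, hold GGAA 3 times each and AGGAAG 1 time each. That of PADI4 also holds TGANTCA 1 time, and no window was available for PADI3. Letters in these windows are a description and do not show binding.

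The targeted transcripts were lower in the tables of their own hairpins. The authors' deposited tables put ETV4 at 26.1% of control for ETV4 shRNA A and at 15.8% for ETV4 shRNA B. For MED25 the authors' deposited tables gave 51.6% of control under MED25 shRNA A and 30.5% under MED25 shRNA B. The direction of the ratios was set from the library numbers in the headers, not from the sign of these genes.

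With ETV4 shRNA A, both deiminase genes were among the most reduced. The authors' deposited table gave PADI2 a log2 ratio of knockdown over control of −1.81, which is 28.4% of control or 3.52-fold lower. PADI1 had a log2 ratio of −1.60 according to the authors' deposited table, which is 33.1% of control or 3.02-fold lower. By size of decrease PADI2 ranked number 15 and PADI1 number 19 of the 495 genes of the authors' deposited table, whose median was −0.79. ETV4 itself was number 10 of the authors' deposited table with a log2 ratio of −1.94.

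With ETV4 shRNA B, the decreases were smaller and their order was the other way round. The authors' deposited table gave PADI1 a log2 ratio of −1.15, or 45.1% of control, which ranked number 12 of 98 genes. It gave PADI2 a log2 ratio of −0.74, or 59.7% of control, which ranked number 54 of the authors' deposited table. The median of all 98 genes of the authors' deposited table was −0.77, so PADI1 lay well below it and PADI2 just above. Both ETV4 hairpins were compared with the same 2 retroviral control libraries, so these 2 sets of values are not independent, and the difference between the hairpins was not tested.

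With MED25 shRNA B, the decreases of both genes were nearly equal. The authors' deposited table gave log2 ratios of −0.88 for PADI1, or 54.4% of control, and −0.87 for PADI2, or 54.7% of control. By size of decrease PADI1 ranked number 119 and PADI2 number 123 of the 374 genes of the authors' deposited table, whose median was −0.77. With MED25 shRNA A, neither gene was among the 786 listed, although that table was the longest. MED25 shRNA A also left more of the MED25 transcript, as given above. Whether this bears on the absence of the 2 genes was not tested. The tables list only genes lowered at least 1.5-fold with a score above a minimum near 20, so PADI1 and PADI2 cannot be called unchanged with MED25 shRNA A, and the difference between the MED25 hairpins could not be given a value.

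Set against each other, the deiminase genes were closest with MED25 shRNA B, where the difference of log2 ratios, PADI1 minus PADI2, was −0.01. It was 0.22 for ETV4 shRNA A and −0.41 for ETV4 shRNA B, a 1.32-fold difference in the amount left. These differences have no error and were not tested. Across its 3 tables PADI1 spanned 0.72 log2 units and PADI2 spanned 1.07.

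PADI1 was lowered at least 2-fold in 2 of its 3 tables, those of both ETV4 hairpins. PADI2 was so in 1, that of ETV4 shRNA A. The share of all genes of the authors' deposited tables lowered at least 2-fold was 23.2% for ETV4 shRNA A, 20.4% for ETV4 shRNA B, 20.1% for MED25 shRNA B and 24.0% for MED25 shRNA A. Since the genes were picked from these same ratios, nothing is read from this comparison. The smallest decrease in any table was 1.5-fold. Among the values of PADI1 and PADI2, that of PADI2 with ETV4 shRNA B was nearest to the limit. It lay 0.16 log2 units beyond the smallest decrease of its table. The other 5 values of the pair lay 0.29 to 1.23 units beyond the smallest decrease of theirs.

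**Figure D2:**
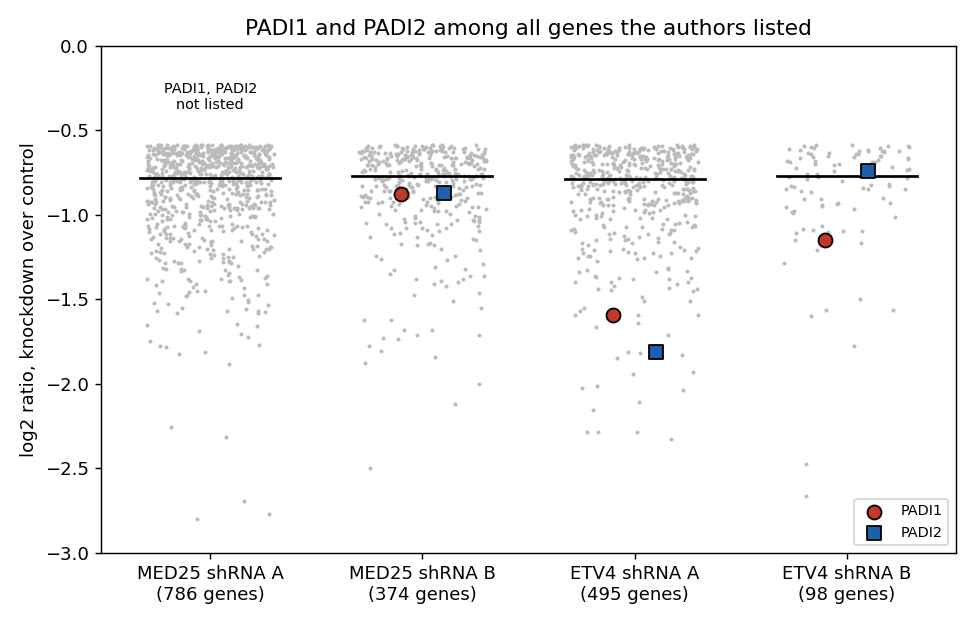
Log2 ratio of knockdown over control on the y axis for every gene in each of the 4 tables on the x axis (grey points, black bar at the median), with PADI1 as red circles and PADI2 as blue squares. Both genes sit far below the median of −0.79 with ETV4 shRNA A, at −1.60 and −1.81, and neither is listed with MED25 shRNA A.

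The score deposited beside each ratio, headed as an adjusted p, was for both genes below that of most genes with a similar decrease. For PADI2 with MED25 shRNA B the score was nearer the middle, at 42.4 against a median of 50.5 for genes of similar ratio. No source used here gives its scale, and a higher score was read as stronger evidence. Under ETV4 shRNA A the authors' deposited table had a score of 229 for PADI2 and 102 for PADI1, against a median of 63.6 for the listed genes. For genes of similar ratio the median there was higher, 407 near PADI2 (3 genes) and 275 near PADI1 (8 genes). The scores for ETV4 shRNA B were 30.9 for PADI1 and 33.2 for PADI2 (the authors' deposited table), against a median of 66.7. There the median for genes of similar ratio was 150 near PADI1 and 63.0 near PADI2. The scores for MED25 shRNA B were 29.5 for PADI1 and 42.4 for PADI2 (the authors' deposited table), against a median of 63.4. Near PADI1 the median for genes of similar ratio was 51.2 with this hairpin. By score, PADI1 ranked number 144 of 495 with ETV4 shRNA A, number 80 of 98 with ETV4 shRNA B and number 312 of 374 with MED25 shRNA B. PADI2 ranked number 46, number 75 and number 256 by score in the same order. Genes with nearly the same ratio, within 0.1 log2 units, mostly scored higher. With ETV4 shRNA B, 9 of the 10 genes within that distance of PADI1 had a higher score, and with MED25 shRNA B 83 of 103 did. For PADI2 the counts were 29 of 36 with ETV4 shRNA B and 61 of 102 with MED25 shRNA B. Near PADI1, 7 of 8 genes scored higher with ETV4 shRNA A, and near PADI2 2 of 3 did. Whether low read counts or spread between replicates lie behind these scores was not tested.

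**Figure D3:**
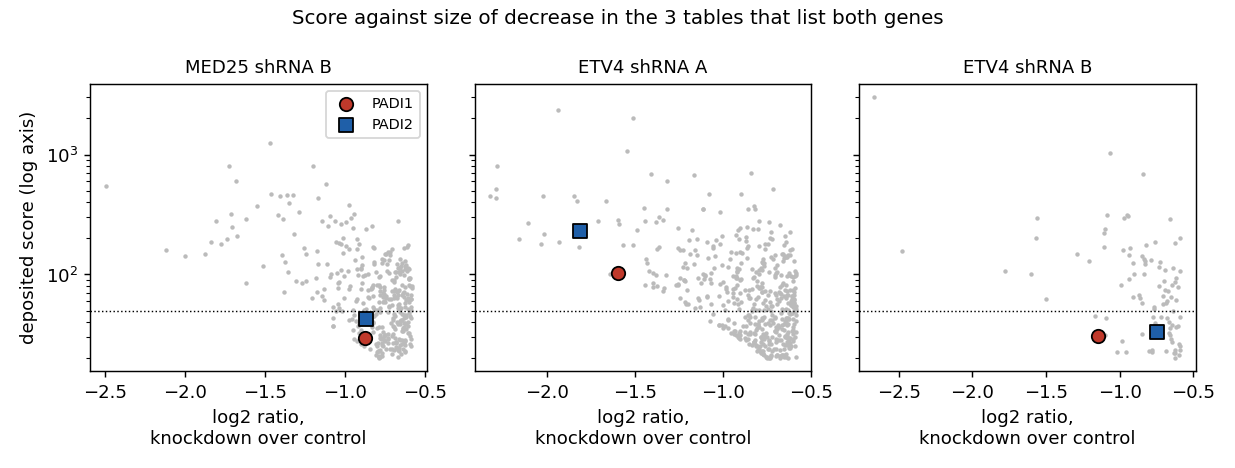
Deposited score (y axis, log scale) against log2 ratio of knockdown over control (x axis) for each listed gene in the 3 tables that hold PADI1 (red circle) and PADI2 (blue square), with a dotted line at a score of 50. Both genes lie above the line with ETV4 shRNA A alone.

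PADI1 and PADI2 were listed in exactly the same tables, a set of 3 that 10 genes in all shared. Across these 10 genes the log2 ratios of the authors' deposited table for ETV4 shRNA A ran between −1.81 and −0.87, with PADI2 the lowest and PADI1 the third lowest. The authors' deposited table for ETV4 shRNA B had them between −1.57 and −0.74, with PADI1 the second lowest and PADI2 the least reduced. The authors' deposited table for MED25 shRNA B had them between −1.78 and −0.64, with PADI1 number 4 and PADI2 number 5. PADI1, PADI2 and 6 others were lowest with ETV4 shRNA A, whereas AOX1, an aldehyde oxidase, and ESM1, a secreted endothelial proteoglycan, were lowest with MED25 shRNA B.

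Likeness was measured only against the 9 other genes of this set, not against the 10 genes in all 4 tables. By Euclidean distance of the 3 log2 ratios TMEM27 was nearest to both deiminases, and by the largest single difference it was nearest to PADI2 and number 2 for PADI1, after UBE2QL1. TMEM27 encodes the membrane protein collectrin. Its log2 ratios from the authors' deposited tables were −1.67 for ETV4 shRNA A, −0.83 for ETV4 shRNA B and −0.82 for MED25 shRNA B, at a distance of 0.18 from PADI2 and 0.33 from PADI1. PADI1 was number 2 in the order of PADI2, and PADI2 was number 4 in the order of PADI1, at a distance of 0.46. UBE2QL1, which is related to ubiquitin-conjugating enzymes, came between them for PADI1 at a distance of 0.42. Its log2 ratios from the authors' deposited tables were −1.32 for ETV4 shRNA A, −0.94 for ETV4 shRNA B and −0.65 for MED25 shRNA B. Titin (TTN) and the noncoding gene RP11-887P2.1 completed the 5 nearest for each member, at distances of 0.51 and 0.42 for PADI1 and of 0.64 and 0.67 for PADI2. TMEM27, TTN and RP11-887P2.1 overlap a gene on the other strand, so their values are uncertain if counting ignored strand. The ratios with both ETV4 hairpins share controls, so this likeness rests on 3 values that are not all independent.

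**Figure D4:**
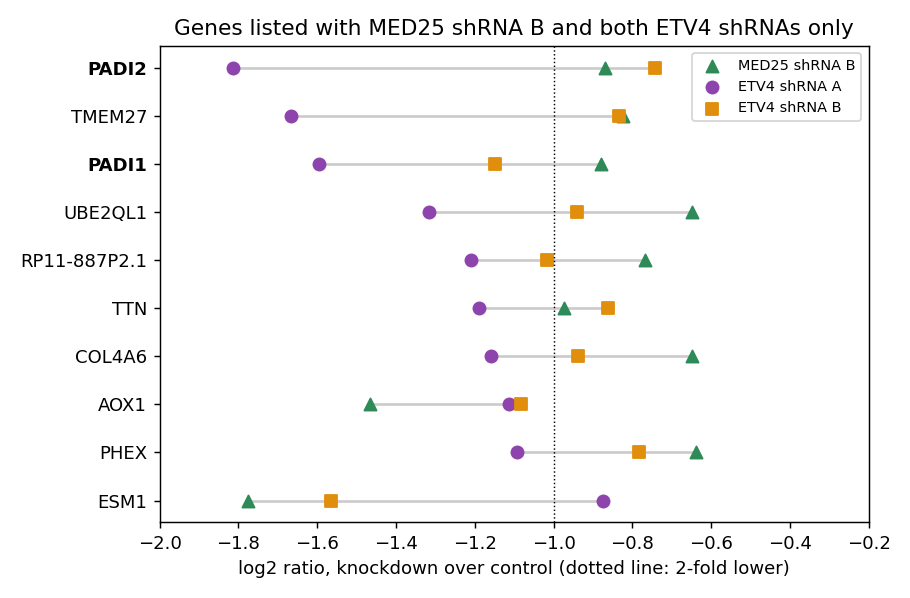
Log2 ratio of knockdown over control (x axis) for the 10 genes listed with MED25 shRNA B (green triangles), ETV4 shRNA A (purple circles) and ETV4 shRNA B (orange squares) and not with MED25 shRNA A, ordered by the value with ETV4 shRNA A. PADI2, TMEM27 and PADI1 have the 3 lowest values with ETV4 shRNA A, at −1.81, −1.67 and −1.60.

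The remaining family members were in no table. They are PADI3, which modifies the hair follicle protein trichohyalin, PADI4, the nuclear deiminase of neutrophils, and PADI6 of the oocyte and early embryo. The family count was thus 2 of 5 in each of the 3 tables that hold PADI1 and PADI2. It was 0 of 5 with MED25 shRNA A. The 2 were chosen because they stand in several of these tables, so the count follows from that choice. For scale, the MED25 tables held 3.44% (shRNA A) and 1.61% (shRNA B) of all annotated protein-coding genes. The ETV4 tables held 2.17% (shRNA A) and 0.456% (shRNA B). Nothing about the family as a whole is read from these counts. Of the 20 protein-coding genes nearest the family, 10 on each side, 0 were listed with any hairpin, where 6.14% of all 19951 annotated protein-coding genes were, so a count of 0 in 20 is close to that share. SDHB, a subunit of succinate dehydrogenase next to PADI2, and RCC2, a regulator of mitosis next to PADI6, were among those not listed. A gene that is not listed may be unexpressed, changed by less than the limit or higher, and these cases cannot be told apart here.

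Neighbouring genes were listed together elsewhere as well. Counting protein-coding genes next to each other in the annotation, 84 pairs were in the same table at least 1 time, and 75 of them in 1 table alone. PADI2 with PADI1 was 1 of 2 pairs found together in 3 tables, the other being ANK2 with CAMK2D, which were together with both MED25 hairpins and ETV4 shRNA A. With both ETV4 hairpins, 2 pairs were together, PADI2 with PADI1 and APLF with PROKR1. Among the 98 genes of the authors' deposited table for ETV4 shRNA B, no other adjacent pair than these 2 was found. PADI1 and PADI2 were chosen as neighbours that stand in several of these tables, so their place in these counts follows from that choice. The share of all adjacent pairs that were listed together was not computed, and nothing is read from these counts.

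Genes of related arginine chemistry and known deiminase substrates were looked up in the same tables. For scale, 6.14% of 19951 annotated protein-coding genes were in at least 1 table, expressed in PC3 cells or not, and 0.456% were in that of ETV4 shRNA B. Counts over lists this short are a description, and nothing particular to a list is read from them. None of the 27 genes of the cornified layer and hair follicle, where filaggrin, trichohyalin and keratins are deiminated, was in any table. Keratin genes outside these 27 were not counted, so the 0 does not cover keratins as a whole. Of 12 other reported deiminase substrates, 3 were listed. The authors' deposited table gave myelin basic protein (MBP), a substrate of PADI2, a log2 ratio of −0.76 and collagen II (COL2A1) one of −0.74, both under ETV4 shRNA A. For the chemokine gene IL8 the authors' deposited tables gave −0.83 under MED25 shRNA A and −1.17 under MED25 shRNA B. Of these 3, none was in the tables of both targets. The substrate list did not hold histone genes, several of which were listed. Among them were the H3 genes HIST2H3D and HIST1H3D with MED25 shRNA A. The H2A genes HIST2H2AC, HIST2H2AB and HIST1H2AI were listed with both MED25 hairpins. The substrate count therefore does not cover histones.

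Of 9 protein arginine methyltransferases, which act on the same residue, 1 was listed, PRMT6, with a log2 ratio of −0.64 in the authors' deposited table for ETV4 shRNA A. Of 3 other enzymes of the same structural superfamily, 1 was listed, the dimethylarginine hydrolase DDAH1, with a log2 ratio of −1.48 in the authors' deposited table for MED25 shRNA A. Of 14 genes of free arginine metabolism, 4 were listed. For the arginine transporter SLC7A1 the authors' deposited tables gave −1.83 under MED25 shRNA A and −0.60 under ETV4 shRNA A. For the carbamoyl phosphate synthetase CPS1 the authors' deposited tables gave −0.84 under MED25 shRNA A and −0.72 under ETV4 shRNA A. AGMAT, annotated as an agmatinase, had log2 ratios of −1.11 for MED25 shRNA A and −0.74 for MED25 shRNA B (the authors' deposited tables). The neuronal nitric oxide synthase NOS1 had a log2 ratio of −0.83 in the authors' deposited table for MED25 shRNA B. None of these 6 genes was in the short table of ETV4 shRNA B.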

How the data were processed

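Per the labels' protocols, PC3 RNA came from a Qiagen RNeasy extraction and libraries from Illumina protocols. The submitters' processing notes name Novoalign 3.08.02 and the build hg19. How reads were counted, scaled and tested, and whether strand was used, is not given in the sources used for this text.

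The deposited tables hold a log2 ratio per gene beside a column headed as adjusted p, per the file headers. That deposited column was treated as a score because no scale is stated. Of the library numbers in each header, the one common to both hairpins of a target was taken for the control. It stands first in the MED25 headers, so MED25 ratios were turned round to knockdown over control. With this reading every listed gene was lower. Ranks give tied genes the lowest number. No test was run.

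Gene order, strand and coding sequences come from GENCODE 29 on GRCh38, a later build than hg19, to which 1350 of 1400 genes matched by Ensembl identifier. Promoters come from RefSeq on GRCh38.p14. Proteins were aligned end to end with BLOSUM62. The genes named are PADI1, PADI2, the targets, the listed members of fixed gene lists, listed neighbours, and the 5 genes listed in the same tables that lay nearest to each member; other names were chosen after their values were seen. Members and lists were chosen with earlier results of these data known. Ranking and distance were tested on simulated data. Alternatives were limits of 1 on the absolute log2 ratio and of 50 on the score, protein-coding genes alone, ranks by score, another distance, and 5 or 20 neighbours a side. Python 3.11.15, pandas 2.3.3, numpy 2.4.6, Biopython 1.88 and matplotlib 3.10.9 were used.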

Additional observations from a re-analysis of the deposited data

How the results depend on the processing

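With a minimum absolute log2 ratio of 1, PADI1 stayed in 2 tables and PADI2 in 1, and with a score of at least 50 PADI1 stayed in 1 and PADI2 in 1, in each case with ETV4 shRNA A among them. The listing of both genes with MED25 shRNA B thus rests on values below both stricter limits, and so does that of PADI2 with ETV4 shRNA B. PADI1 with ETV4 shRNA B fell below the score limit alone. Among protein-coding genes alone, all 6 ranks moved nearer the top, by 3 to 12 places. Ranked by score, all 6 moved away from it, by 21 to 193 places. With the largest absolute difference in place of Euclidean distance, the 5 nearest genes were the same 5 for each member, but their order changed. UBE2QL1 (0.28) came before TMEM27 (0.32) for PADI1, and PADI2 moved to number 5 (0.41). Neighbours listed numbered 0 with 5 genes to each side and 1 with 20, which was EPHA2, listed with MED25 shRNA A alone. Leaving out each replicate was not run, since library-level values were not analysed here. No paired analysis was possible because the values used are 1 ratio per hairpin. Depth is unknown, so no floor can be given for genes that are not listed.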

Other observations

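Among the 10 genes listed in exactly the tables of PADI1 and PADI2, 3 are on chromosome X, namely TMEM27, COL4A6 and PHEX. Across the union of the tables, 50 of the 1350 genes with an annotated chromosome are on X (3.70%). In the 3 tables that hold these 10 genes, it was 22 of 483 for ETV4 shRNA A (4.55%). For ETV4 shRNA B it was 5 of 98 (5.10%), and for MED25 shRNA B 11 of 352 (3.1%). The number on X among the 10 genes was noticed after the values were seen and was not tested.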
